A study of Mus musculus with 3 samples.

Results

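The genes described are those for potassium channels, voltage-gated calcium channels and transient receptor potential (TRP) channels of the C, M and V families in nuclei of the mouse abdominal aorta. They were chosen by symbol, as every feature whose symbol starts with Kcn, Cacna, Cacnb, Trpc, Trpm or Trpv followed by a letter or digit, and by a minimum of 50 unique molecular identifiers (UMIs, counted RNA molecules) summed over the 3 libraries. The symbol rule took 139 of 33696 features, and 96 of these passed the minimum, against 18544 of all features that reached it. The summed UMIs therefore chose the members and are given only as a description. Just inside the minimum were Cacna2d2 with 58 UMIs and Trpm5 and Kcnab3 with 66 each, and just outside it Kcnu1 and Trpm8 with 48 each. Below it were also Kcnj11 with 4 UMIs and Kcna5 with 13, both known from smooth muscle, and Trpc5 with 45. By role the members were 25 pores of voltage-gated potassium (Kv) channels, 9 Kv accessory subunits, 10 calcium- or sodium-activated potassium channel genes, 9 inward rectifiers, 9 tandem-pore channels, 9 calcium channel pores, 8 calcium channel auxiliary subunits, 4 TRPC, 7 TRPM and 3 TRPV channels. The last 3 of the 96 encode no channel subunit: Kcnq1ot1, a long non-coding RNA antisense to Kcnq1, Trpc4ap, an associated protein, and Kcnrg, a regulator.

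All 3 libraries came from abdominal aortae of ApoE-/- mice of strain C57Bl/6, which lack apolipoprotein E and develop atherosclerosis, on a high-fat diet for 20 weeks. The groups were mice kept in room air, mice exposed to cigarette smoke in which no aneurysm of the abdominal aorta had formed (the smoke library), and smoke-exposed mice with one (the aneurysm library). Each group is 1 library, and how many mice went into it was not stated. No group lacks the ApoE deletion or the diet, so each comparison is made on that background, and with 1 library a group there is no replicate, no test and no p-value.

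After filtering, 11022, 14001 and 5707 nuclei remained in the room air, smoke and aneurysm libraries, with medians of 4058.5, 6225 and 1443 UMIs. The aneurysm library had the lowest depth, which widens its intervals. Its makeup also stands apart: macrophage-like nuclei were 45.2% and 43.0% of the first 2 libraries and 13.4% of the third. Of the kept barcodes, 79 of 30651 occur in more than 1 library. Apoe was at 3.63, 5.44 and 5.02 CPM, the UMIs of a gene per 1e6 UMIs of the nuclei summed; the deleted stretch of the gene is not described, so this value checks no label. Nuclei were grouped without using the channel genes, and groups are called by their fixed marker genes: smooth muscle-like (378, 459 and 136 nuclei), fibroblast-like (461, 603 and 720), endothelial-like (1791, 1935 and 574) and macrophage-like (4983, 6025 and 765). The smooth muscle markers summed to 7153, 7476 and 10472 CPM in smooth muscle-like nuclei and to 36.9, 43.3 and 98.6 CPM in macrophage-like nuclei. A second group with smooth muscle markers (4208, 4618 and 5995 CPM) is led by Cemip, Tgfb2 and Notch3. It stayed unnamed, because Notch3 is on the fixed pericyte list, and is called cluster 7 (500, 599 and 315 nuclei). Cluster 3, led by Grin2a, Grem1 and Ano1, had near-equal scores for fibroblast (2.31) and smooth muscle (2.28) markers and is likewise called by its number. Nuclei had been pulled down with beads against a nuclear antigen, a step that can set the shares of nuclei.

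As background, the tone of an artery is set by calcium entering smooth muscle through voltage-gated calcium channels, each made of a pore (Cacna1 genes) with beta (Cacnb) and alpha-2-delta (Cacna2d) subunits. Potassium channels oppose that entry by hyperpolarising the membrane: the calcium-activated BK channel (Kcnma1 with Kcnmb1), the voltage-gated Kv channels, the inward rectifiers (Kcnj) and the tandem-pore leak channels (Kcnk). TRP channels admit mixed cations in response to lipids, stretch, temperature or oxidants. Endothelial cells use small and intermediate conductance potassium channels (Kcnn3, Kcnn4) and Trpv4 to relay relaxation, and immune cells use potassium channels to keep the driving force for calcium entry.

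The promoters of 2 members are shown: Trpc6, the member at least 2-fold higher in cluster 7 than in smooth muscle-like nuclei of every library, and Kcnmb1, the one with the highest fold in smooth muscle-like nuclei over the other classes. Each is the run of 250 bases before the annotated start, 5′ to 3′, from RefSeq on GRCm38.p6. The capitals in Trpc6 mark a CArG box, the site of serum response factor, which a script found 122 bases before the start; Kcnmb1 held none in this window.
Trpc6, chr9:8543892-8544141, plus strand: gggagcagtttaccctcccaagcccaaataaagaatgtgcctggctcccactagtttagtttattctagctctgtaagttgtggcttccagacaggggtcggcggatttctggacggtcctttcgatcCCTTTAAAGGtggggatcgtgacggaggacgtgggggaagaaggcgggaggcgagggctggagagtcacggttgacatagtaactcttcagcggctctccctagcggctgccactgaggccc
Kcnmb1, chr11:33962763-33963012, plus strand: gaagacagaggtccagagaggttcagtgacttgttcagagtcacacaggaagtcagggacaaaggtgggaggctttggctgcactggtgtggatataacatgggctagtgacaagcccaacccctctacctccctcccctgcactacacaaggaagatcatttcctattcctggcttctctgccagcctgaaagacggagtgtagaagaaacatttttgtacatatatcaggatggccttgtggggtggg
The CArG box, searched on both strands, lay in such a window of 439 of 27025 genes (1.62%) and of 2 of the 76 members with a promoter in the table, Trpc6 and Trpv1. Among the 20 members highest in smooth muscle-like nuclei that had one, it lay in 1. A match is a match of letters and shows no binding.

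The channel genes took up more of the RNA in smooth muscle-like nuclei than in the other large classes. In smooth muscle-like nuclei the 96 members were 1.29% of all UMIs in the room air library, 1.33% in the smoke library and 1.34% in the aneurysm library. They were 0.935%, 0.853% and 0.834% in cluster 7 and 0.920%, 0.855% and 0.848% in cluster 3. In fibroblast-like nuclei they were 0.591%, 0.552% and 0.417%, and in macrophage-like nuclei 0.289%, 0.282% and 0.328%. In every library smooth muscle-like nuclei were above these groups, by more than their own range over the libraries, while clusters 3 and 7 changed places. Neuron-like nuclei, few as they were (73 and 72), held 1.49% in the smoke library and 1.62% in the aneurysm library. UMIs of a member went with the length of its gene, with a Spearman coefficient of 0.41 over the 96 members as a description, so levels are compared between classes and libraries and not between genes.

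Among the 4 named classes, 81 members had at least 50 UMIs in all. Of these, 26 had their highest mean CPM in smooth muscle-like nuclei, where 17.9% of all genes did, and 15 were highest there in each of the 3 libraries, against 6.98% of all genes. Fibroblast-like nuclei had the highest mean CPM of 21 members (19.9% of all genes), endothelial-like nuclei of 14 (23.4%) and macrophage-like nuclei of 20 (38.7%). Nuclei thinned to 800 UMIs left fewer members above the minimum, and 13 were highest in smooth muscle-like nuclei. In each of the 3 libraries these 3 classes were highest for 10 (8.55%), 10 (11.6%) and 16 members (23.3%). Folds over the next class, and the words highest and next, refer to these 4 classes only, and the unnamed and smaller groups hold higher levels of several members.

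**Figure D1:**
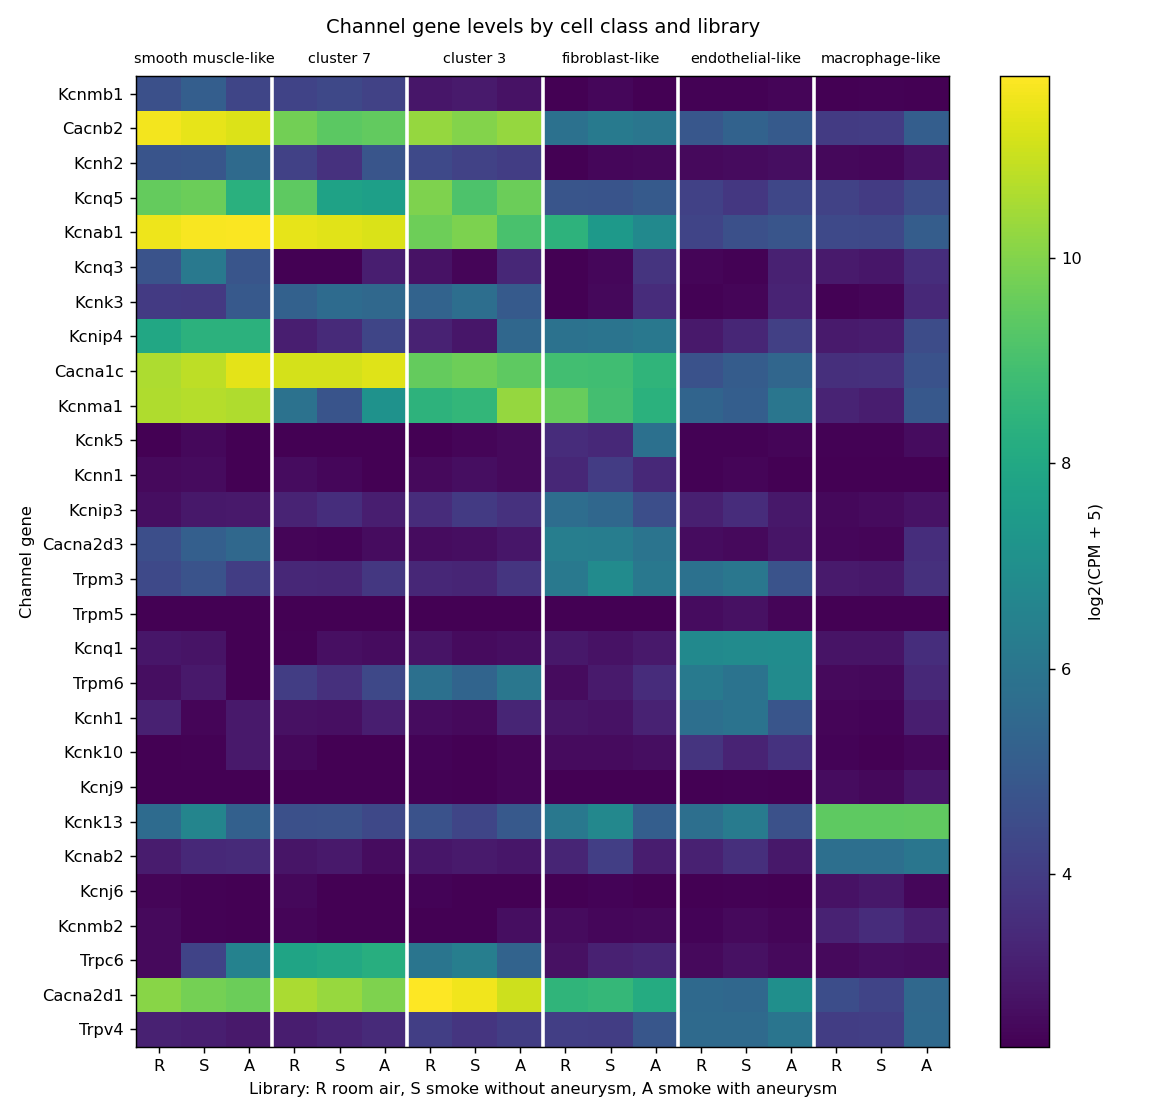
Each row is a channel gene and each column a library within a group of nuclei; the colour is the level as log2(CPM + 5). Cacnb2 and Kcnab1 are brightest in smooth muscle-like nuclei at 3086 and 2953 CPM in room air, Kcnk13 in macrophage-like nuclei at 688 CPM, Cacna2d1 in cluster 3 at 3473 CPM and Trpc6 in cluster 7 at 221 CPM.

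Genes for the pore, the beta and the alpha-2-delta part of voltage-gated calcium channels were all counted in smooth muscle-like nuclei. Cacna1c, the pore of the L-type channel Cav1.2, stood at 1549, 1815 and 2661 CPM in smooth muscle-like nuclei of the room air, smoke and aneurysm libraries, and at 7.01, 7.27 and 21.2 CPM in macrophage-like nuclei. Cacnb2, a beta subunit that carries the pore to the membrane, stood at 3086, 2734 and 2468 CPM in smooth muscle-like nuclei. Its mean there was 45.7-fold the next class, while that of Cacna1c was 4.64-fold the next class, the fibroblast-like nuclei. Cacna2d1, the alpha-2-delta subunit, stood at 1087, 876 and 789 CPM in smooth muscle-like nuclei but at 3473, 3021 and 2133 CPM in cluster 3, the highest of all groups in each library. The T-type pore Cacna1h was low, at 5.64, 2.88 and 17.3 CPM in smooth muscle-like nuclei, from 29 UMIs over all libraries. Cluster 7 held more of it in smoke, at 12.2 CPM from 95 UMIs. Cacna1g, another T-type pore, stood at 15.2, 9.85 and 8.52 CPM in fibroblast-like nuclei and at 0, 0.524 and 11.6 CPM in smooth muscle-like nuclei. All barcodes of the aneurysm library together held 45 UMIs of Cacna1h and 23 of Cacna1g, so its values rest on few UMIs.

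The calcium-activated potassium channel BK had both subunits in smooth muscle-like nuclei. Kcnma1, its pore, stood at 1586, 1671 and 1604 CPM there, with overlapping counting intervals between room air and aneurysm. Fibroblast-like nuclei had 759, 487 and 318 CPM of Kcnma1, so the mean in smooth muscle-like nuclei was 3.11-fold theirs; with finer clustering (resolution 2) the order of these 2 classes turned. Kcnmb1, the beta-1 subunit that raises the calcium sensitivity of the channel in smooth muscle, was counted with few UMIs, at 19.7, 30.4 and 14.4 CPM from 42, 116 and 5 UMIs. It stood at 0 to 0.547 CPM in the other 3 named classes, and its mean in smooth muscle-like nuclei was 79.7-fold the next of these. Cluster 7, which is not among them, held 13.5, 15.6 and 13.2 CPM of Kcnmb1.

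Voltage-gated potassium channel genes of smooth muscle-like nuclei included pores of the Kv7, Kv4 and Kv11 groups and their partners. Kcnab1, a cytoplasmic beta subunit of Kv channels, stood at 2953, 3251 and 3384 CPM there, 15.6-fold the next class by mean. Kcnq5, the Kv7.5 pore known from arteries, stood at 727, 801 and 315 CPM (25.2-fold), and the aneurysm library was lowest. Cluster 3 held 970, 554 and 790 CPM of Kcnq5, more than smooth muscle-like nuclei in room air and aneurysm, and its smoke library was lowest. Kcnh2, the pore of the hERG channel, stood at 22.5, 24.1 and 43.3 CPM (26.7-fold) and Kcnq3, a further Kv7 pore, at 21.6, 66.1 and 23.1 CPM (8.93-fold). Kcnip4, which binds Kv4 pores, stood at 248, 329 and 332 CPM (5.22-fold). The Kv4 pore Kcnd3 stood at 101, 70.8 and 162 CPM, a mean only 1.86-fold that of fibroblast-like nuclei. Fibroblast-like nuclei of the smoke library held more of it, at 92.2 CPM. Among leak channels, Kcnk3 (TASK-1) stood at 10.3, 9.7 and 26 CPM in smooth muscle-like nuclei but at 33.3, 44.7 and 40.8 CPM in cluster 7. Kcnj8, the inward rectifier pore of the vascular ATP-sensitive channel, was near the limit of detection, at 2.82, 6.29 and 8.67 CPM. Kcnj2, the Kir2.1 inward rectifier, was at 1.41, 1.84 and 0 CPM there and at 6.62, 8.23 and 5.43 CPM in endothelial-like nuclei. Its highest level of the 4 classes was in macrophage-like nuclei, at 9.84, 10.7 and 12.5 CPM. Trpm4, a calcium-activated cation channel of arteries, was highest in smooth muscle-like nuclei of each library, at 34.8, 35.4 and 34.7 CPM in smooth muscle-like and 18.3, 21.5 and 21.7 CPM in endothelial-like nuclei, and was alike in the 3 libraries.

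Cluster 7 held Cacna1c, Kcnab1 and Kcnmb1 at levels within 2-fold of smooth muscle-like nuclei. It differed from them in every library in the BK pore Kcnma1, in Kcnip4, Kcnd3 and Cacnb2, and in Trpc6. Kcnab1 stood at 2703, 2614 and 2410 CPM in cluster 7, within 1.40-fold of smooth muscle-like nuclei in each library, and Cacna1c at 2288, 2303 and 2530 CPM. Kcnmb1 in smooth muscle-like nuclei was 1.46-fold (0.953 to 2.23) cluster 7 in room air and 1.96-fold (1.5 to 2.54) in smoke. Kcnma1 stood at 54.5, 22.1 and 136 CPM in cluster 7, which is 29.1-fold (25.4 to 33.5), 75.6-fold (65.0 to 88.5) and 11.8-fold (9.65 to 14.6) lower than in smooth muscle-like nuclei of the same library. These intervals are exact 95% intervals on the ratio of counts and cover counting error only, as do all intervals below. Kcnip4 was 66.3-fold (39.8 to 119), 54.5-fold (40.7 to 74.6) and 23.1-fold (12.7 to 46.0) lower in cluster 7. Kcnd3 was 50.5-fold (25.2 to 118), 138-fold (53.2 to 509) and 135-fold (23.2 to 5424) lower there, on 8, 4 and 1 UMIs. Cacnb2 was 3.59-fold (3.45 to 3.75), 4.11-fold (3.98 to 4.25) and 3.46-fold (3.11 to 3.85) lower.

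Trpc6, a cation channel opened by diacylglycerol, went the other way. It stood at 221, 257 and 297 CPM in cluster 7 and at 0.939, 13.6 and 86.7 CPM in smooth muscle-like nuclei, from 2, 52 and 30 UMIs there. Cluster 7 was thus 236-fold (65.0 to 1948), 18.8-fold (14.3 to 25.3) and 3.43-fold (2.34 to 5.19) higher. Trpc1, expressed more widely, stood at 34.8, 34.7 and 36 CPM in cluster 7 and at 55.9, 39.6 and 23.1 CPM in smooth muscle-like nuclei. Trpc4 was nearly undetected, at 1.5, 0 and 0 CPM in cluster 7 and at 0, 0 and 14.4 CPM in smooth muscle-like nuclei. Of 38 members measured in both groups of the smoke library, 16 were at least 2-fold higher in smooth muscle-like nuclei (9.33% of all genes) and 9 at least 2-fold lower (7.31%). Over the 14 members measured in all 3 libraries, 4 were at least 2-fold higher (4.25% of all genes) and 1, Trpc6, at least 2-fold lower (4.31%) in each library.

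**Figure D2:**
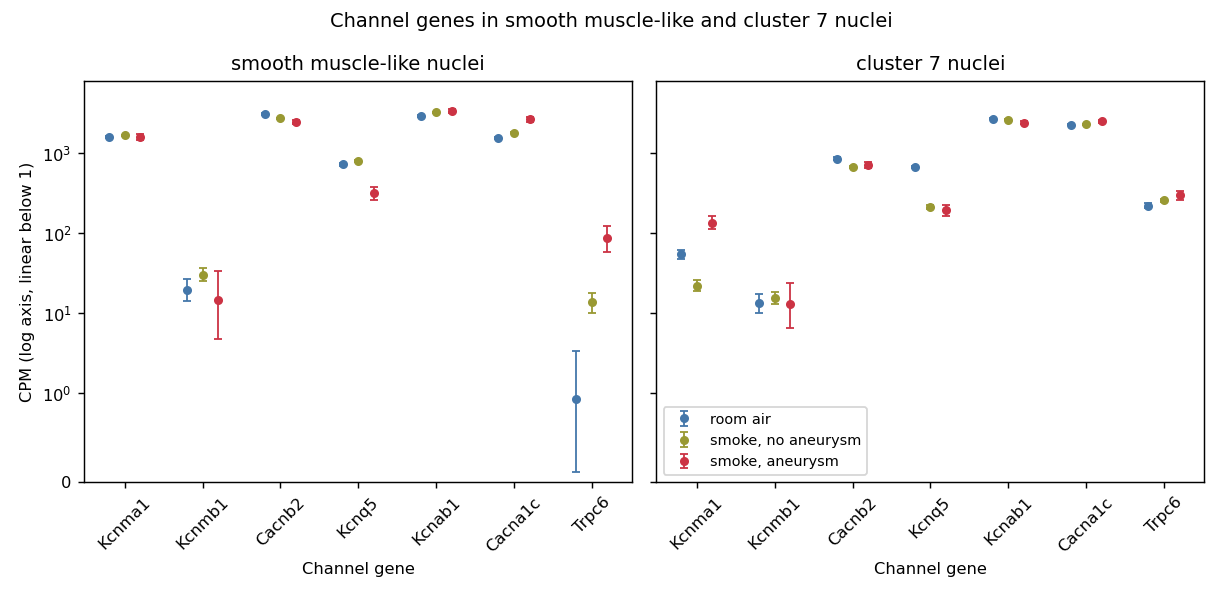
Points are CPM on a log axis that is linear below 1, for smooth muscle-like nuclei on the left and cluster 7 on the right; colours are libraries and bars exact 95% Poisson intervals. Kcnma1 is near 1600 CPM on the left and 22.1 to 136 CPM on the right, while Trpc6 is at 0.939 to 86.7 CPM on the left and 221 to 297 CPM on the right.

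Other members were highest among the 4 classes elsewhere. In endothelial-like nuclei Kcnq1, a Kv7 pore, stood at 106, 112 and 114 CPM, 30.5-fold the next class by mean, with little spread between libraries. Cluster 13, which carries endothelial and lymphatic markers, held 157, 53.6 and 94.1 CPM of Kcnq1. Trpm6, a magnesium channel, stood at 66.6, 55.5 and 112 CPM, and Kcnh1, an EAG-type pore, at 49.0, 54.8 and 23.1 CPM. Cluster 13 held more Kcnh1 in each library, at 124, 199 and 127 CPM. Kcnn3, the small conductance calcium-activated channel of endothelium, stood at 49.1, 80 and 44.8 CPM and Trpv4, a channel opened by stretch and osmotic swelling, at 42.8, 43.5 and 58.9 CPM. Kcnk10 and Trpm5 were also highest there among the 4 classes, at 8.27, 4.62 and 8.15 CPM and at 1.26, 1.70 and 0.453 CPM, while neuron-like nuclei of the aneurysm library held 178 CPM of Kcnk10. Kcnt2, a sodium-activated potassium channel, stood at 1262, 1142 and 709 CPM in endothelial-like and at 1645, 1441 and 1190 CPM in fibroblast-like nuclei.

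In fibroblast-like nuclei the members highest among the 4 classes in each library were led by Kcnk5, an acid-sensitive leak channel, at 6.52, 5.75 and 51.1 CPM, where the aneurysm library was above the others. Cluster 13 held more Kcnk5 in each library, at 33.1, 39.9 and 61.7 CPM. Kcnk2 (TREK-1), a stretch-sensitive leak channel, stood at 4.34, 8.48 and 6.39 CPM in fibroblast-like nuclei and at 0 CPM in smooth muscle-like nuclei of all 3 libraries. Kcnn1, a small conductance channel, stood at 5.43, 10.9 and 5.68 CPM, and Kcnip3, a calcium sensor that binds Kv4 pores, at 46.7, 40.0 and 19.2 CPM. Dendritic-like nuclei held more Kcnip3 in room air and smoke, at 98.5 and 102 CPM. Cacna2d3, an alpha-2-delta subunit, stood at 78.2, 75.5 and 57.5 CPM and Trpm3, a steroid- and heat-gated channel, at 64.6, 112 and 63.9 CPM. Trpm3 was higher in another class than fibroblast-like nuclei with resolution 2 or with libraries clustered one by one.

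Macrophage-like nuclei were marked by Kcnk13 (THIK-1), a leak channel known from microglia, at 688, 676 and 696 CPM, 10.6-fold the next class. Cacna1d, the L-type pore Cav1.3, stood at 393, 342 and 611 CPM there and at 137, 129 and 54.9 CPM in smooth muscle-like nuclei. Kcnab2, a Kv beta subunit, stood at 49.0, 49.9 and 59.9 CPM, Trpm2, a channel opened by ADP-ribose under oxidative stress, at 37.4, 28.2 and 52.4 CPM, and Trpv2 at 60.9, 64.7 and 51.8 CPM. Other immune groups held more of these in room air and smoke. Kcnab2 stood at 79.2 and 109 CPM in T or NK-like nuclei, and Trpm2 at 45.3 and 45.2 CPM in dendritic-like nuclei. Trpv2 stood at 73.4 CPM in T or NK-like nuclei of room air and 64.9 CPM in dendritic-like nuclei of smoke. Kcnmb2, an accessory BK subunit, stood at 4.33, 6.40 and 3.74 CPM, with 43 of its 363 UMIs of the smoke library in 1 nucleus. The inward rectifiers Kcnj9 and Kcnj6 stood between 0.624 and 2.70 CPM in these nuclei. Kcna3, the Kv1.3 pore known from lymphocytes and macrophages, was at 1.18, 1.22 and 0.624 CPM. Trpm7, a channel with a kinase domain that most cells use, differed little: it ranged from 222 to 320 CPM over the 4 classes and 3 libraries.

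Smaller classes, present in numbers in some libraries only, held the highest levels of several members. In neuron-like nuclei Kcnip4 stood at 5605 CPM in the smoke and 2452 CPM in the aneurysm library, though 888 of its 2203 UMIs in the first were in 1 nucleus. Neuron-like nuclei were highest for 29 of the 96 members in the smoke library (9.37% of all genes) and 30 in the aneurysm library (13.2%), some of them on very few UMIs, such as Kcnj9 on 2. In B-like nuclei Cacna1e, the R-type pore, stood at 1181 CPM (445 UMIs) in room air and 1234 CPM (935 UMIs) in smoke, against 4.27 and 2.5 CPM in macrophage-like nuclei. Kcnq5 in B-like nuclei, at 1120 and 1414 CPM, exceeded its level in smooth muscle-like nuclei in both libraries, and Cacna1i, a T-type pore, stood at 47.8 and 55.4 CPM there. Kcnn4 stood at 65.7 and 99.7 CPM in T or NK-like nuclei, and Cacnb3, a beta subunit, at 172 and 150 CPM in dendritic-like nuclei. In brown adipocyte-like nuclei, of which the libraries held 2, 99 and 557, Kcnk3 stood at 255 CPM in smoke and 795 CPM in aneurysm. Kcnc2, a Kv3 pore, stood at 281, 266 and 416 CPM in cluster 13.

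The first comparison, smoke against room air, asks what differs with 20 weeks of smoke where no aneurysm formed. Only pairs with at least 50 UMIs in the 2 libraries together were measured, and a member was counted where the CPM differed at least 1.5-fold. In smooth muscle-like nuclei the median log2 ratio over 29 measured members was 0.12, against 0.066 over all genes. Of the 29, 6 were higher in smoke (10.8% of all genes) and 0 lower (3.51%). These counts moved with the processing: 0 were higher in nuclei thinned to 800 UMIs and 3 with no filter on nuclei, and 4 were lower at resolution 2 or with 15 components. The number of members measured can differ between these settings, so the counts are not shares of the 29.

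Of the main contractile channel genes, Kcnab1 was 1.10-fold (1.07 to 1.13), Cacna1c 1.17-fold (1.12 to 1.22) and Kcnma1 1.05-fold (1.01 to 1.10) as high in smoke as in room air. Cacnb2 was 1.13-fold (1.09 to 1.16) lower. Kcnmb1 was 1.54-fold (1.07 to 2.25) higher. Kcnq3 differed most among members with many UMIs, at 66.1 against 21.6 CPM, 3.06-fold (2.23 to 4.28) higher, from 252 UMIs in 57 nuclei against 46 in 16. Trpc6 was 14.5-fold (3.82 to 123) higher, but from 52 UMIs in 16 nuclei against 2 UMIs. When smooth muscle-like nuclei were joined with cluster 7, a choice made after seeing the data, its log2 ratio was 0.29. Kcnk13 was 2.11-fold (1.67 to 2.68) higher, with 51 of its 351 UMIs in 1 nucleus and a level of 92.0 CPM below the 391 CPM of all other nuclei; without the nuclei of the highest doublet scores its direction turned. Macrophage markers summed to 682 CPM in smooth muscle-like nuclei of room air and 1001 CPM in smoke, and their part in the Kcnk13 value was not tested. In cluster 7 itself 5 of 33 measured members were higher in smoke (8.91% of all genes) and 5 lower (3.34%). Kcnq5 there stood at 673 CPM in room air and 214 CPM in smoke, 3.15-fold (2.96 to 3.35) lower, and in smooth muscle-like nuclei 1.10-fold (1.04 to 1.17) higher; the difference between the groups of nuclei was not tested. Neuron markers in cluster 7 summed to 308 CPM in room air and 43.4 CPM in smoke, and their part in the Kcnq5 value was not tested.

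In fibroblast-like nuclei 5 of 32 measured members were higher in smoke (12.3% of all genes) and 3 lower (3.10%). Kcnab1 stood at 169 against 337 CPM, 2.00-fold (1.79 to 2.24) lower, and Kcnma1 at 487 against 759 CPM, 1.56-fold (1.45 to 1.67) lower; the direction of Kcnma1 turned at resolution 2. Trpm3 was 1.74-fold (1.41 to 2.15) higher, with 49 of 410 UMIs in 1 nucleus, and Cacnb4, a beta subunit, 1.67-fold (1.20 to 2.37) higher. Kcnk13 was 1.56-fold (1.26 to 1.94) higher at 99.9 against 64.1 CPM, in both libraries below all other nuclei, and turned when nuclei were thinned to equal depth. Macrophage markers in fibroblast-like nuclei summed to 591 CPM in room air and 1144 CPM in smoke; their part was not tested.

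In endothelial-like nuclei 6 of 41 measured members were higher in smoke (11.2% of all genes) and 1 lower (2.01%). Both calcium-activated channels of endothelium were higher. Kcnn3 stood at 80 against 49.1 CPM, 1.63-fold (1.49 to 1.78) higher, and Kcnn4 at 37.9 against 24.4 CPM, 1.55-fold (1.37 to 1.76) higher. In cluster 12, a Pkhd1l1-led part of the class, Kcnn3 stood at 185 against 124 CPM, and in the largest part, cluster 2, at 63.8 against 42.5 CPM, so smoke was higher within both. Kcnab2 was 1.76-fold (1.29 to 2.43) higher at 7.12 against 4.04 CPM, both below all other nuclei, and turned when libraries were clustered one by one. Kcnk10 was 1.79-fold (1.35 to 2.38) lower. Of 14 genes on a list for stress during tissue handling, 8 were higher in smoke in these nuclei, with a median log2 ratio of 0.72. Of 11 macrophage markers 7 were also higher, with a sum of 620 CPM in room air and 939 CPM in smoke, and Kcnn4 and Kcnab2 have their highest mean of the 4 classes in macrophage-like nuclei. The part of either list in these values was not tested.

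In macrophage-like nuclei, with the most UMIs of any class, the median log2 ratio over 52 measured members was -0.016, with 4 higher (8.18% of all genes) and 5 lower (2.97%). Those that differed were low: Kcnj13, an inward rectifier, stood at 1.59 against 0.501 CPM, 3.17-fold (1.87 to 5.68) higher, and Kcnk7, a tandem-pore family member, at 1.20 against 0.530 CPM, 2.26-fold (1.33 to 4.04) higher. Kcnrg was 1.95-fold (1.37 to 2.83) higher. Kcnip1, a Kv4 partner, was 2.53-fold (1.91 to 3.36), Cacna1e 1.71-fold (1.34 to 2.17) and Kcnj10, an inward rectifier, 1.70-fold (1.19 to 2.41) lower. Kcnk13, the main marker among the members, stood at 676 CPM in smoke and 688 CPM in room air. Handling stress genes were higher for 7 of 14 in this class (median log2 ratio 0.60), which was also not tested as a part of these values.

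The second comparison, aneurysm against smoke, asks what differs with an aneurysm among smoke-exposed mice. It shares the smoke library with the first comparison, which divides smoke by room air, while this one divides aneurysm by smoke. A value of the smoke library that is too high or too low therefore moves the ratios of both in opposite directions. In smooth muscle-like nuclei, of which the aneurysm library held 136, the median log2 ratio over 27 measured members was -0.030 (all genes -0.088). Of these, 4 were higher in aneurysm (11.6% of all genes) and 8 lower (23.1%).

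The level of Kcnab1 was 1.04-fold (0.979 to 1.11), of Kcnma1 0.960-fold (0.878 to 1.05) and of Cacnb2 0.903-fold (0.841 to 0.968) that of the smoke library, and of Cacna1c 1.47-fold (1.37 to 1.57), with 161 of its 921 UMIs in 1 nucleus. Kcnmb1 had only 5 UMIs in the aneurysm library, and its ratio of 0.475 has an interval from 0.151 to 1.14. Kcnq5 differed most among well-counted members: it stood at 315 against 801 CPM, 2.54-fold (2.10 to 3.11) lower, from 109 UMIs in 36 nuclei. Cacna1d was 2.35-fold (1.49 to 3.94) lower on 19 UMIs, and Kcnk13 2.90-fold (1.60 to 5.85) lower on 11 UMIs; without the nuclei of the highest doublet scores Kcnk13 turned. Both are highest of the 4 classes in macrophage-like nuclei, and macrophage markers in smooth muscle-like nuclei summed to 1001 CPM in smoke and 561 CPM in aneurysm, whose part was not tested.

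Among those higher, Kcnd3, the Kv4.3 pore, stood at 162 against 70.8 CPM, 2.29-fold (1.68 to 3.06), and Cacna1a, the P/Q-type pore, at 49.1 against 27.0 CPM, 1.82-fold (1.02 to 3.06). Both turned when libraries were clustered one by one, and Cacna1a also with thinned nuclei. Trpc6 was 6.36-fold (3.92 to 10.2) higher, but 21 of its 30 UMIs lay in 1 nucleus; without the nucleus with the most UMIs in each library its log2 ratio was 1.35 in place of 2.67, and with cluster 7 joined to the class it was 0.42. Of 30 members measured in cluster 7, 7 were higher in aneurysm (10.4% of all genes) and 4 lower (16.6%), and Trpc6 there was at 257 CPM in smoke and 297 CPM in aneurysm. Kcnma1 there stood at 136 against 22.1 CPM, 6.13-fold (4.79 to 7.82) higher, from 113 UMIs in 34 nuclei. In the aneurysm library this lay below the 1604 CPM of smooth muscle-like nuclei and the 1234 CPM of cluster 3. Cluster 3 held 380 CPM of Kcnma1 in smoke. The part of RNA from other nuclei in the Kcnma1 value of cluster 7 was not tested. Smooth muscle markers summed to 10472 CPM in smooth muscle-like nuclei of the aneurysm library against 7476 CPM in smoke, and their part was not tested.

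**Figure D3:**
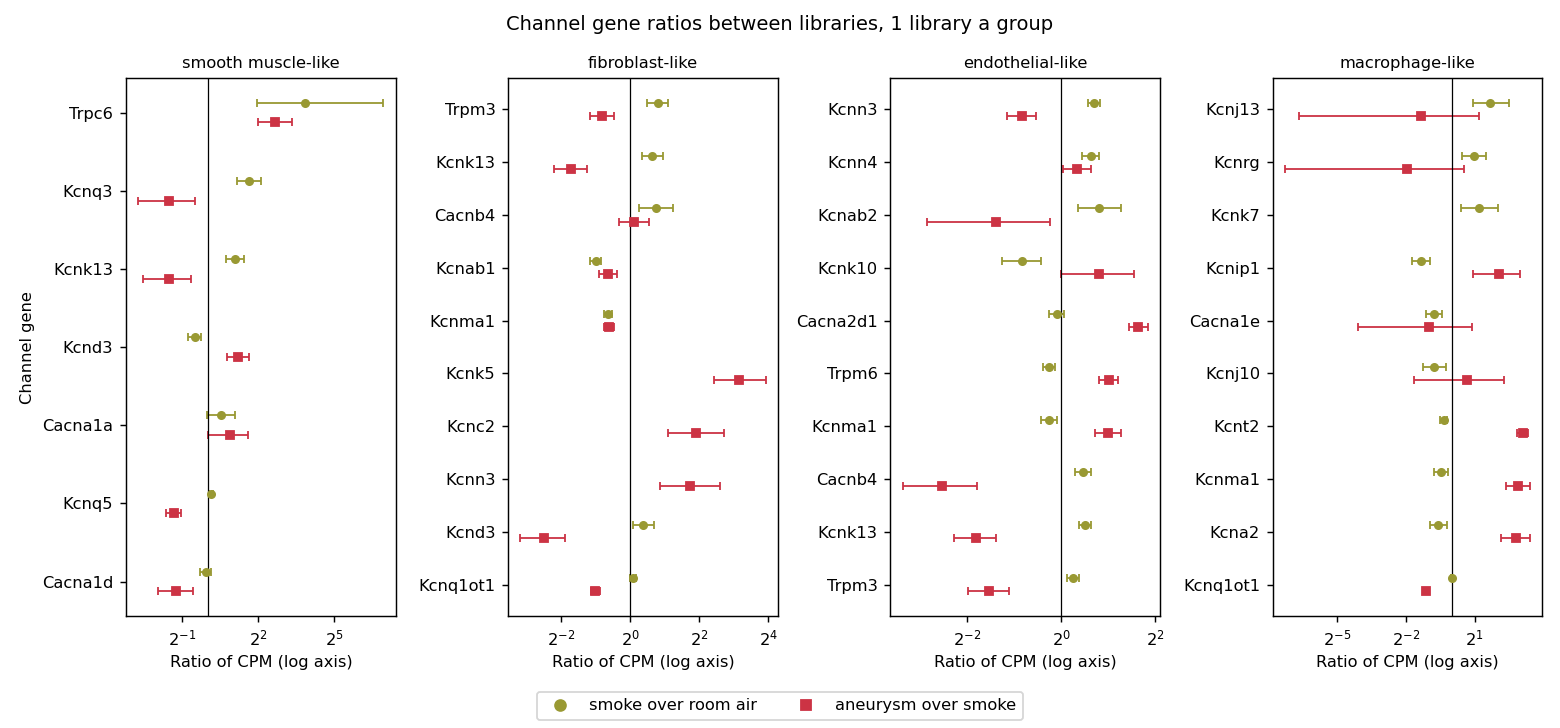
Each panel is a cell class; points are the ratio of CPM between 2 libraries on a log axis for genes named by the fixed rule, with exact 95% intervals for counting error, and the vertical line is a ratio of 1. Kcnd3 in aneurysm over smoke lies at 2.29 in smooth muscle-like and 0.177 in fibroblast-like nuclei.

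In fibroblast-like nuclei 4 of 28 measured members were higher in aneurysm (12.6% of all genes) and 9 lower (16.5%), with a median log2 ratio of -0.33 (all genes 0.025). Kcnk5 stood at 51.1 against 5.75 CPM, 8.89-fold (5.41 to 15.2) higher, from 72 UMIs in 45 nuclei against 21 in 20. Cluster 20, a part of the class led by Sema3c and Cd55, was 21.1% of the class in aneurysm and 2.65% in smoke, and it held 82.9 CPM of Kcnk5 in aneurysm. Within cluster 6, the main part, Kcnk5 was still at 35.2 against 4.43 CPM. Kcnn3, 3.30-fold (1.82 to 6.06) higher over the class, stood within cluster 6 at 6.39 against 4.98 CPM and in cluster 20 of the aneurysm library at 46.8 CPM. Kcnc2 was 3.72-fold (2.12 to 6.64) higher, at 23.4 CPM below the 52.2 CPM of all other nuclei.

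Kcnd3 was lower in fibroblast-like nuclei of the aneurysm library, at 16.3 against 92.2 CPM, 5.65-fold (3.70 to 9.03), and within cluster 6 it stood at 22.4 against 93.3 CPM. Kcnma1 was 1.53-fold (1.38 to 1.70) and Kcnab1 1.56-fold (1.31 to 1.88) lower. Kcnk13 was 3.27-fold (2.38 to 4.6) lower and Kcnq1ot1 2.01-fold (1.84 to 2.19) lower. Macrophage markers summed to 310 CPM in fibroblast-like nuclei of the aneurysm library against 1144 CPM in smoke. Within cluster 6 alone the median log2 ratio was -0.01 over 24 members, with 2 higher (11.8% of all genes) and 4 lower (15.6%), shares near those of all genes. Kcnq1ot1 lies antisense to Kcnq1, and no source states strand handling, so UMIs of this pair cannot be fully told apart.

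In endothelial-like nuclei 6 of 39 measured members were higher in aneurysm (8.03% of all genes) and 13 lower (20.7%). Cacnb4 stood at 6.79 against 39.1 CPM, 5.76-fold (3.47 to 10.3) lower. Cluster 12, whose 154 CPM of Cacnb4 in smoke exceed the 16.3 CPM of cluster 2, was 26.6% of the class in smoke and 1.92% in aneurysm; within cluster 2 Cacnb4 was at 3.74 against 16.3 CPM. Kcnt2, at 1947 CPM in cluster 12 of the smoke library, was lower within cluster 2 as well, at 694 against 1095 CPM. Trpm3 was 2.87-fold (2.15 to 3.92) lower, with 102 of its 1176 UMIs of the smoke library in 1 nucleus, and turned with a minimum of 1000 UMIs and at resolution 2. Kcnk13 was 3.53-fold (2.62 to 4.86) lower, where macrophage markers summed to 281 against 939 CPM.

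Trpm6 was 2.02-fold (1.76 to 2.33) higher in endothelial-like nuclei of the aneurysm library, at 117 against 68.4 CPM within cluster 2 and 94.5 against 30.9 CPM within cluster 11. Kcnma1 was 2.00-fold (1.65 to 2.42) and Cacna2d1 3.13-fold (2.72 to 3.60) higher, but their levels of 60.2 and 124 CPM lie below the 388 and 623 CPM of all other nuclei, and Cacna2d1 turned at resolution 0.5. Kcnn3 was 1.78-fold (1.46 to 2.21) lower than in smoke, at 44.8 CPM close to the 49.1 CPM of room air.

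In macrophage-like nuclei 27 of 48 measured members were higher in aneurysm (19.0% of all genes) and 9 lower (18.7%), and the median log2 ratio was 0.73 (all genes -0.013). Many of the 27 stood below the other nuclei of their library. Kcnt2 stood at 110 against 12.9 CPM, 8.51-fold (7.18 to 10.0) higher, where all other nuclei had 455 CPM, and Kcnma1 at 24.96 against 3.35 CPM, 7.45-fold (5.16 to 10.5), where all other nuclei had 375 CPM. In 1 step chosen after seeing the data, members below all other nuclei in the library where they were higher were left out, which left 10 of 25 higher, beside 15.2% of all genes treated alike. Of the 25, 6 were lower (21.0% of all genes treated alike), and the median log2 ratio was 0.077 (all genes treated alike -0.087). Striated muscle markers summed to 720 CPM in macrophage-like nuclei of the aneurysm library against 9.54 CPM in smoke, and smooth muscle markers to 98.6 against 43.3 CPM. In the aneurysm library striated muscle markers summed to 37.6 CPM in smooth muscle-like, 25.6 CPM in fibroblast-like and 12.2 CPM in endothelial-like nuclei. The part of either list in the values of macrophage-like nuclei was not tested.

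Several members that stand above the other nuclei were among those higher. Cacna1d stood at 611 against 342 CPM, 1.78-fold (1.67 to 1.90), from 979 UMIs in 390 nuclei. Cacna1a stood at 449 against 270 CPM, 1.66-fold (1.54 to 1.79). Trpm2 was 1.86-fold (1.47 to 2.31), Kcnk6, a tandem-pore channel, 1.84-fold (1.39 to 2.41) and Trpv4 3.49-fold (2.67 to 4.49) higher. Kcna2, a Kv1 pore, was 6.97-fold (4.39 to 10.7) higher on 26 UMIs in 15 nuclei. It stood at 330 CPM in neuron-like nuclei of the aneurysm library, and neuron markers in macrophage-like nuclei summed to 4.64 CPM in smoke and 49.9 CPM in aneurysm, whose part was not tested. Kcnk13 stood at 696 against 676 CPM. Of the members lower in aneurysm, only Kcnq1ot1, at 329 against 718 CPM, 2.18-fold (2.00 to 2.38), had an interval that left out 1.

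The makeup of macrophage-like nuclei differed between these libraries, since cluster 15, led by F13a1 and Cd163, was 44.4% of the class in aneurysm, 3.59% in smoke and 2.11% in room air. Within cluster 0 Cacna1d stood at 827 against 473 CPM and Cacna1a at 846 against 294 CPM, and within cluster 1 Cacna1d stood at 331 against 254 CPM and Cacna1a at 494 against 310 CPM. Cluster 15 held 134 CPM of Kcnt2 in smoke and 269 CPM in aneurysm, against 12.1 and 10.6 CPM in cluster 0. Counted within cluster 0 alone, 11 of 28 members were higher (17.9% of all genes) and 4 lower (19.7%), with a median log2 ratio of 0.044. Within cluster 1 alone, 16 of 33 were higher (17.1%) and 1 lower (19.5%), with a median of 0.54. Within cluster 15 alone, 2 of 14 were higher (13.5%), a share near that of all genes, and 1 lower (12.4%), with a median of 0.38.

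**Figure D4:**
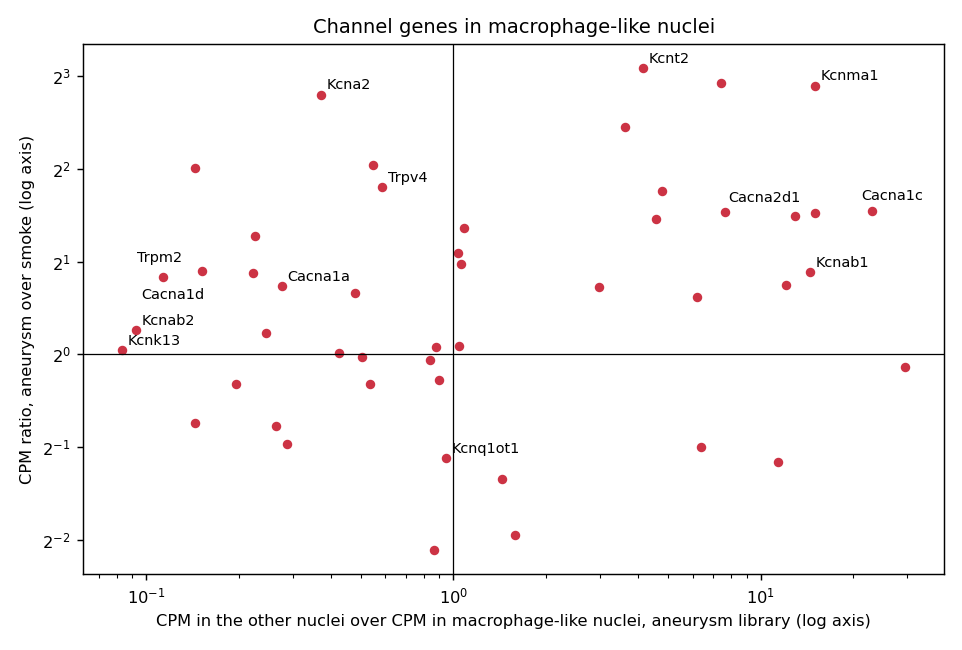
Each point is a channel gene measured in macrophage-like nuclei; the x axis is its CPM in the other nuclei over that in macrophage-like nuclei of the aneurysm library and the y axis its CPM ratio, aneurysm over smoke, both on log axes. Both axes use the aneurysm macrophage-like CPM, so they are not independent. Kcnt2 and Kcnma1 lie to the right of the vertical line at 1 with ratios of 8.51 and 7.45, and Cacna1d, Cacna1a and Trpm2 to the left of it with ratios of 1.66 to 1.86.

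The calcium handling partners of these channels, a list of 40 genes that are no members, were also counted. In smooth muscle-like nuclei 26 were measured in smoke against room air, with 2 higher (10.8% of all genes) and 1 lower (3.51%). Ryr3, a calcium release channel of the sarcoplasmic reticulum, was 2.14-fold (1.57 to 2.95) higher, at 53.2 against 24.9 CPM. Piezo2, a stretch-gated channel, stood at 14.9 against 56.4 CPM, with a ratio of 0.265 (0.190 to 0.366). In aneurysm against smoke 23 were measured in these nuclei, with 3 higher (11.6% of all genes) and 3 lower (23.1%). Stim1, the calcium sensor of the reticulum, stood at 257 against 151 CPM, 1.70-fold (1.34 to 2.13) higher, and its relative Stim2 at 34.7 against 101 CPM, with a ratio of 0.342 (0.175 to 0.604). Mylk, the kinase of myosin light chain, was 1.60-fold (1.43 to 1.79) and Ano1, a calcium-activated chloride channel, 1.94-fold (1.39 to 2.67) higher. In fibroblast-like nuclei Piezo2 stood at 363 against 65.7 CPM in aneurysm against smoke, 5.53-fold (4.74 to 6.48) higher. In macrophage-like nuclei Slc8a1, the sodium-calcium exchanger, stood at 2050 against 3237 CPM, with a ratio of 0.633 (0.612 to 0.656), and Atp2b2, a plasma membrane calcium pump, was 2.30-fold (2.15 to 2.46) higher in endothelial-like nuclei of smoke against room air. The makeup of these classes differed between the libraries compared. Cluster 20 was 21.1% of fibroblast-like nuclei in aneurysm and 2.65% in smoke, and cluster 15 was 44.4% and 3.59% of macrophage-like nuclei. Cluster 12, which has Atp2b2 among its leading genes, was 26.6% of endothelial-like nuclei in smoke and 20.2% in room air. The part of makeup in these values was not tested.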

How the data were processed

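Nuclear RNA of abdominal aortae was measured by droplet single-nucleus RNA sequencing in 3 libraries, 1 per group. The deposited matrices hold unnormalized UMI counts for each gene and barcode, written by cellranger 8.0.1 per the file headers; Cell Ranger 2.2.0, STAR and mm10 are named in the submitters' processing notes, a conflict that was not resolved. Neither source states intron counting or strand handling. The libraries held 73891039, 117247048 and 15634797 UMIs (room air, smoke, aneurysm).

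Barcodes with at least 500 UMIs, 300 genes and under 5% mitochondrial UMIs were kept. With scanpy 1.11.5 and leidenalg 0.10.2, each nucleus was scaled to 10000 UMIs before the log, and 2000 variable genes (channel genes left out), 30 principal components, 20 neighbours and resolution 1 gave 24 clusters. Scrublet called 314 of 11022, 270 of 14001 and 1 of 5707 nuclei doublets, with expected rates set at 10.55%, 11.89% and 5.88%. The calls were thus below the expected rate in every library, and the caller did not work in the aneurysm library. No nuclei were removed in the values reported, and doublets remain. Clusters were named by marker score (at least 0.5, margin 0.25), cut-offs set after the data had been seen.

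UMIs were summed per class and library and scaled to CPM. Poisson and conditional binomial intervals (95%) cover counting error only; UMIs remove PCR copies, yet nuclei of 1 library are not replicates. The ratio code was tested on simulated data. Trimmed-mean (TMM) factors from edgeR 4.0.16 were an alternative scaling.

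Named were Cacna1c, Trpc6, Kcnab1, Kcnmb1, textbook vascular and immune members, up to 10 members highest in each library in smooth muscle-like and 5 in each other class, and, per comparison and class, up to 3 per direction by the interval bound nearest 1 (1.5-fold, 50 UMIs). Members given within clusters or in smaller classes, and cluster 7, were chosen after their values were seen. Members, lists and rules were chosen with earlier results of these data known. Values of a few members are not reported here.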

Additional observations from a re-analysis of the deposited data

Results flagged for a closer look

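These members differed at least 1.5-fold between 2 libraries in opposite directions in 2 cell classes, with counting intervals that left out 1. With 1 library a group the difference between classes was not tested, and each value below is the log2 difference between the 2 class ratios.

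In aneurysm against smoke, Cacna1d was higher in macrophage-like nuclei and lower in the 3 others, by 2.07 against smooth muscle-like, 1.75 against fibroblast-like and 1.79 against endothelial-like nuclei. It is highest of the 4 classes in macrophage-like nuclei, and the median log2 ratio of macrophage markers in those 3 classes was -1.09, -1.69 and -1.98; their part was not tested. Kcnd3 was higher in smooth muscle-like and lower in fibroblast-like nuclei, by 3.69, though its direction in smooth muscle-like nuclei turned when libraries were clustered one by one. Kcnn3 was higher in fibroblast-like and lower in endothelial-like nuclei, by 2.56. Within cluster 6 of the fibroblast-like nuclei Kcnn3 stood at 6.39 against 4.98 CPM, and cluster 12, with 185 CPM of Kcnn3 in smoke, was 26.6% of endothelial-like nuclei in smoke and 1.92% in aneurysm. Kcnq5 was lower in smooth muscle-like nuclei and higher in endothelial-like nuclei, by 1.98, and in macrophage-like nuclei, by 2.09. Kcnma1 was lower in fibroblast-like nuclei and higher in endothelial-like nuclei, by 1.62, and in macrophage-like nuclei, by 3.51. All other nuclei of the aneurysm library held 12.1-fold the Kcnq5 and 15.0-fold the Kcnma1 of its macrophage-like nuclei. The part of RNA from other nuclei was not tested.

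The remaining differences of that comparison set macrophage-like nuclei, where the member was higher, against a class where it was lower. They were 3.5 for Cacnb4 and 3.78 for Kcnt2 against endothelial-like nuclei, 1.53 for Kcnab1 against fibroblast-like nuclei and 2.97 for Kcnq3 against smooth muscle-like nuclei. For Trpm3 they were 2.35 against fibroblast-like and 3.06 against endothelial-like nuclei, where its direction turned with a minimum of 1000 UMIs and at resolution 2. Each of these members stood below all other nuclei in macrophage-like nuclei of the aneurysm library. The other nuclei held 1.06-fold the Cacnb4, 4.15-fold the Kcnt2, 4.55-fold the Kcnq3, 7.65-fold the Trpm3 and 14.5-fold the Kcnab1 of macrophage-like nuclei. The part of RNA from other nuclei was not tested.

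In smoke against room air, Kcnn3 was higher in endothelial-like nuclei and 1.54-fold (1.14 to 2.10) lower in macrophage-like nuclei, by 1.33.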

How the results depend on the processing

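No paired analysis was possible because each group is 1 library. Of 252 recomputed summary values, 210 stayed within their limits and 42 moved. The other 968 were values of single genes, together with counts of members in fibroblast-like and endothelial-like nuclei. Counts in macrophage-like nuclei for smoke against room air were also among them. Of the 968, 674 stayed, 278 moved and 16, all of single genes, turned. Moves of the counts among the 968 are not listed below. A setting that removes nuclei or UMIs can leave fewer members above the minimum, but counts did not always fall. Members lower in smooth muscle-like nuclei, smoke against room air, went from 0 to 2 without the highest Scrublet scores and to 1 when thinned. The causes of these moves were not tested. Joining cluster 7, leaving out members below other nuclei and using single clusters were chosen after seeing the data. Depth limits the aneurysm library most.

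The mean share of members in smooth muscle-like UMIs (1.32%) was 1.15% with no filter on nuclei, 0.960% at resolution 2, 1.02% with 15 components, 1.20% with libraries clustered one by one, 1.36% without the highest Scrublet scores, 1.24% without the top nucleus of each gene, 1.28% in nuclei thinned to 800 UMIs and 1.02% joined with cluster 7. Members highest in smooth muscle-like nuclei (26 of 81) were 13 when thinned, out of fewer members above the minimum.

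In smooth muscle-like nuclei, smoke against room air, members higher (6) were 3 with no filter, 10 with a minimum of 20 UMIs, 16 with no minimum and 0 thinned. Members lower (0) were 2 with no filter, 4 at resolution 2, 4 with 15 components, 1 one by one, 2 without the highest Scrublet scores, 6 with 20 UMIs, 15 with no minimum, 1 thinned and 3 joined with cluster 7. In aneurysm against smoke, members higher (4) were 8 with no filter, 9 at resolution 2, 8 with 15 components, 9 with 20 UMIs, 25 with no minimum, 2 without the top nucleus and 1 thinned, and members lower (8) were 14 one by one and 1 thinned. With no minimum the median was 0.43 there and 0.20 in fibroblast-like nuclei. In macrophage-like nuclei members higher (27 of 48) were 59 with no minimum and 11 thinned. They were 10 of 25 without members below other nuclei, 16 of 33 in cluster 1 and 2 of 14 in cluster 15. Members lower (9 of 48) were 5 with 100 UMIs, 1 thinned, 1 of 33 in cluster 1 and 1 of 14 in cluster 15. The number of members measured can differ between settings. Where it is not given here, a changed count cannot be told from a changed number measured.

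Log2 ratios that turned, aneurysm against smoke: Trpm3 in endothelial-like nuclei to 0.054 (minimum of 1000 UMIs) and 0.16 (resolution 2), Cacna2d1 there to -0.26 (resolution 0.5), and in smooth muscle-like nuclei Cacna1a to -0.46 (one by one) and -0.78 (thinned), Kcnd3 to -0.51 (one by one) and Kcnk13 to 0.16 (Scrublet). Smoke against room air: Kcnk13 to -0.56 in smooth muscle-like (Scrublet) and -0.53 in fibroblast-like nuclei (thinned), Kcnma1 in fibroblast-like nuclei to 0.092 (resolution 2), Kcnab2 in endothelial-like nuclei to -0.099 (one by one), and in cluster 15 Cacna1e to 0.22 and Kcnrg to -0.78. Against the next class, Kcnma1 in smooth muscle-like nuclei turned to -0.11 (resolution 2) and Trpm3 in fibroblast-like nuclei to -0.76 (resolution 2) and -0.26 (one by one).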
